A study of Homo sapiens with 14 samples.

Results

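The 10 genes described here are the Krüppel-like factor (KLF) genes *KLF2*, *KLF3*, *KLF5*, *KLF6*, *KLF7*, *KLF9*, *KLF10*, *KLF11*, *KLF13* and *KLF16*, out of 20033 protein-coding genes of the annotation. KLF4 binding to them was read from 4 lists of KLF4 ChIP-seq peaks in BEAS-2B, an established human bronchial epithelial cell line. A peak was assigned to a gene if its summit, the position of highest signal, lay from 10 kb upstream of the transcription start site (TSS) to 2 kb past the gene end. The 4 libraries came from WT cells without treatment (WT control), WT cells given 1 µM As3+ for 6 h (WT As3+), untreated Nrf2 KO cells (Nrf2 KO control) and Nrf2 KO cells given the same As3+ dose (Nrf2 KO As3+). WT and KO cells were colonies from a CRISPR-Cas9 experiment with guides to exon 2 of the gene for Nrf2, a transcription factor of the oxidative stress response, and were sorted by whether a western blot showed Nrf2 protein. A peak list contains no expression value, so neither the knockout nor the cell type can be checked in it. With 1 library for each condition there is no replicate to set a difference against, and no test was made.

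KLF proteins carry 3 zinc fingers near the C-terminus and bind GC-rich words of the CACCC type, for which KLF4 and its relatives can compete. Their N-terminal parts differ and set whether a member activates or represses. Several members regulate each other's genes, and in epithelia the family is known for its part in the balance of proliferation and differentiation. Among the 10 genes, *KLF2*, *KLF5*, *KLF6* and *KLF7* encode proteins known mainly as activators. *KLF3* encodes a repressor that recruits CtBP. *KLF9*, *KLF10*, *KLF11*, *KLF13* and *KLF16* encode proteins that can bind the SIN3 corepressor.

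KLF4 binding was placed at the sequence level with 3 kinds of word. The KLF word was CCACACCC or CCACGCCC, the wider KLF word added CCCCACCC and CCCCGCCC, and the core of the antioxidant response element (ARE), the word bound by Nrf2, was TGACNNNGC. All were searched on both strands within 100 bp of a summit. The 5 stretches of 201 bases printed here are centred on summits and were taken from GRCh38. None overlapped an annotated UTR. They are written 5′ to 3′ on the strand of the gene, with the words named in each sentence in capitals. The first is the upstream site of *KLF9* at chr9:70419597-70419797 (minus strand), shown because its fold was among the highest of the 10 genes in WT As3+ and because it holds 2 KLF words. The next is the intron 1 site of *KLF13* at chr15:31328404-31328604 (plus strand), the highest of the 10 genes in Nrf2 KO control, which held no KLF word and has 1 wider word in capitals.
KLF9: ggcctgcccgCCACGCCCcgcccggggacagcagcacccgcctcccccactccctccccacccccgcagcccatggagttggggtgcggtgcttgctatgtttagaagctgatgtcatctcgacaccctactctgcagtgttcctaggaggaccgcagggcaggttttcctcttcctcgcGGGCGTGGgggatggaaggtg
KLF13: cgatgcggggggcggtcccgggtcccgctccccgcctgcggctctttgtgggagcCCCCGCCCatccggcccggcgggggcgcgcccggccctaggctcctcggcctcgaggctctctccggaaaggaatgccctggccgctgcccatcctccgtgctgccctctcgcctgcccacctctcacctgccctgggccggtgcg
The third is the promoter site of *KLF3* at chr4:38663973-38664173 (plus strand), which stood high in the WT As3+ and the Nrf2 KO control list and has 3 wider KLF words and an ARE core in capitals. The fourth lies across the end of exon 1 and the start of intron 1 of *KLF6* at chr10:3784772-3784972 (minus strand), where the summit was the same base in both lists, and has an ARE core in capitals. The last is the upstream site of *KLF16* at chr19:1864266-1864466 (minus strand), with a wider KLF word and an ARE core in capitals.
KLF3: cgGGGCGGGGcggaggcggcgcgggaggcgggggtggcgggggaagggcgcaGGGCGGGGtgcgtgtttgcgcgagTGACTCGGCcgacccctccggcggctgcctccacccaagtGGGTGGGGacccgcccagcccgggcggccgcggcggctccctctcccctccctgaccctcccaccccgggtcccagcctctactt
KLF6: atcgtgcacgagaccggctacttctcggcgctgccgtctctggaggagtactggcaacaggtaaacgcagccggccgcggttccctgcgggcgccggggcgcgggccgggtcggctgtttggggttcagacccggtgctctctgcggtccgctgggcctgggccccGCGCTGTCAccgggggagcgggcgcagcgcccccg
KLF16: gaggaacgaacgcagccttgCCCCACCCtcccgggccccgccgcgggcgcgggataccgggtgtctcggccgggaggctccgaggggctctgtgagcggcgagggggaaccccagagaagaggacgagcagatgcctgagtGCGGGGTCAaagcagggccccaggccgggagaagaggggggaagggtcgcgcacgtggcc

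The 4 lists were of very unequal length, and this touches every count that follows. On the autosomes, X and Y there were 751 peaks in WT control, 29870 in WT As3+, 76545 in Nrf2 KO control and 130 in Nrf2 KO As3+. The lists do not state read totals, but the deposited fold and p of a peak together give the number of fragments over its summit and the local background. The lowest background, which moves with the depth and the unbound DNA of a library, was 1.90 fragments in WT control, 0.757 in WT As3+, 0.491 in Nrf2 KO control and 1.64 in Nrf2 KO As3+. The median summit was covered by 25, 10, 7 and 19 fragments in the same order. Background and list length moved with the conditions, and their part in the results was not tested.

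All 10 genes had KLF4 peaks in WT As3+ and in Nrf2 KO control, and none had a peak in WT control or Nrf2 KO As3+. In WT As3+ the 10 of 10 genes stood beside 66.5% of all protein-coding genes counted the same way, and in Nrf2 KO control the 10 of 10 stood beside 81.0%. In WT control the 0 of 10 stood beside 2.51% of all genes, and in Nrf2 KO As3+ the 0 of 10 beside 0.439%. The exact 95% Clopper-Pearson interval of 0 of 10 reaches 30.8% and that of 10 of 10 begins at 69.2%. These intervals cover counting error only. The combined pattern, peaks in both long lists and in neither short one, held for 10 of the 10 genes and for 61.3% of all genes. It was therefore the common pattern of the genome in these lists, and the list of 10 genes was drawn up with earlier results of the same data known.

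The short lists had nothing close to most of the 10 genes. The nearest WT control peak lay 74.8 kb outside the window at *KLF7*, 79.8 kb at *KLF10* and 8617 kb at *KLF13*, with a median of 658 kb. The nearest Nrf2 KO As3+ peak lay between 2464 kb (*KLF2*) and 61931 kb (*KLF9*) away, with a median of 12252 kb. At its lowest background, the WT control list held no peak with a fold below 4.77, and the Nrf2 KO As3+ list none below 4.17. These values rest on 12 and 28 peaks and are not thresholds of the lists, since the median fold of all WT control peaks was 4.37. Of the 36 peaks of the 10 genes in WT As3+, 24 had a fold of at least 4.77 and 31 a fold of at least 4.17. Of the 49 peaks in Nrf2 KO control, 33 and 41 did. Each of the 10 genes had such a peak in both long lists. Fold is not comparable between libraries, so these counts do not say whether the same sites were unbound in the other libraries or below the threshold.

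**Figure D1:**
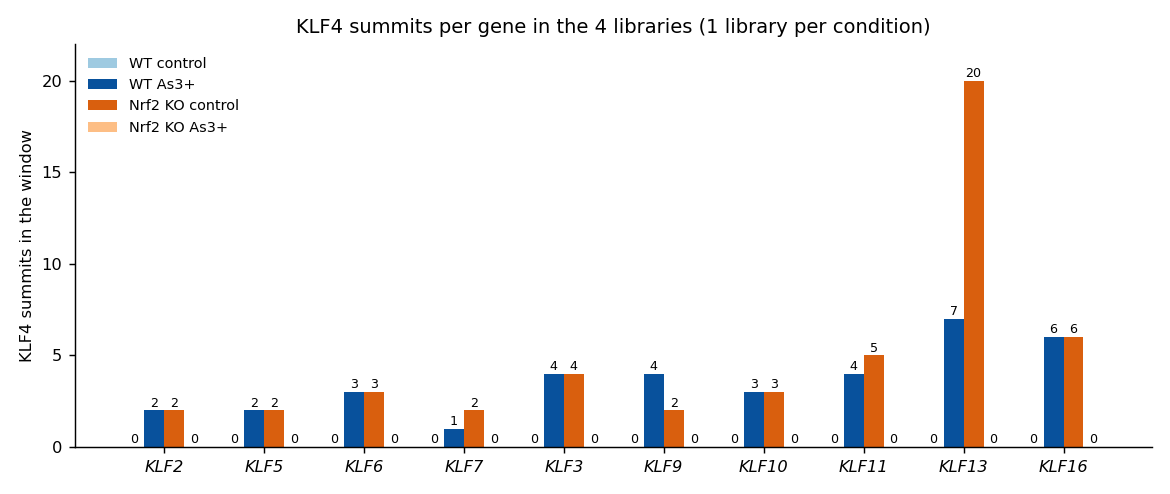
Number of KLF4 summits (y axis) in the window of each KLF gene (x axis) in the 4 libraries, with 1 library per condition and the count above each bar. All 10 genes are at 0 in WT control and Nrf2 KO As3+, and *KLF13* stands apart with 7 summits in WT As3+ and 20 in Nrf2 KO control.

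In the lists as deposited, the number of peaks per gene was equal or nearly so in WT As3+ and Nrf2 KO control at most of the 10 genes, and this rested on lists of unequal length. *KLF2* and *KLF5* had 2 peaks each in WT As3+ and 2 each in Nrf2 KO control. *KLF3* had 4 and 4, *KLF6* and *KLF10* had 3 and 3, and *KLF16* had 6 and 6. *KLF7* had 1 in WT As3+ and 2 in Nrf2 KO control, *KLF9* had 4 and 2, and *KLF11* had 4 and 5. *KLF13* had 7 and 20. The total was 36 in WT As3+ and 49 in Nrf2 KO control, and without *KLF13* it was 29 in each. The Nrf2 KO control list was 2.56 times as long as the WT As3+ list, and summits in the windows of all genes were 2.34 times as many, whereas over the 10 KLF genes they were 1.36 times as many. An equal number in the 2 lists was found at 6 of the 10 genes, beside 21.6% of the 12813 genes with a peak in both. A higher number in Nrf2 KO control was found at 3 of the 10, beside 69.6%.

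The picture per gene was different once the Nrf2 KO control list was shortened by its p-values to the 29870 peaks of the WT As3+ list. All 10 genes still had a peak in it, beside 65.3% of all genes. *KLF13* then had 7 peaks in WT As3+ and 8 in Nrf2 KO control. *KLF9* and *KLF11* had 4 and 1 each, *KLF16* had 6 and 4, *KLF3* had 4 and 3, *KLF6* had 3 and 2, and *KLF5* had 2 and 1. Equal numbers were left at *KLF2* (2), *KLF7* (1) and *KLF10* (3). The shares of all genes with equal, higher or lower numbers were not counted at this list length.

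Most of the genes had several peaks. At least 2 summits were found at 9 of the 10 genes in WT As3+, where 38.3% of all genes had as many, and at 10 of the 10 in Nrf2 KO control, where the share was 62.7%. The windows of the KLF genes were shorter than usual at the median, from 15.9 kb to 121 kb with a median of 29.3 kb, beside 39.5 kb over all genes. Per 10 kb of window the median was 1.11 summits in WT As3+ and 1.34 in Nrf2 KO control, beside 0.171 and 0.424 over all genes. The values over all genes include genes without a peak, whereas each of the 10 genes had a peak in both lists. Over genes with a peak, the median number of summits per window was 2 in WT As3+ and 3 in Nrf2 KO control. Over the 10 genes it was 3.5 and 3. Summits per 10 kb were not counted over genes with a peak. *KLF16* was the densest in both lists, with 2.59 summits per 10 kb in each, and *KLF7* the sparsest, with 0.0895 and 0.179. Their windows were 23.2 kb and 112 kb long. Every window has the same flanks of 10 kb and 2 kb, and the part of window length in these densities was not tested.

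The other 17 genes of the KLF and SP families, which share the zinc fingers, were counted in the same way. Of these, 13 had a peak in WT As3+, 15 in Nrf2 KO control, 0 in WT control and 1 in Nrf2 KO As3+, and 11 had the pattern of the 10 genes. Every SP gene had a peak in both long lists, and the genes that lacked one were all KLF genes. *KLF8*, *KLF15*, *KLF17* and *KLF18* had 0 peaks in WT As3+, and *KLF14* and *KLF18* had 0 in Nrf2 KO control. Peaks at all 10 genes were therefore not a trait of the whole KLF family. The 1 gene with an Nrf2 KO As3+ peak was *SP9*, with 0, 5, 6 and 1 peaks in WT control, WT As3+, Nrf2 KO control and Nrf2 KO As3+. *KLF4* itself, which is not among the 10 genes, had 0, 2, 4 and 0.

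Most of the 10 genes had a KLF4 summit close to the canonical start, but few summits lay within 100 bp of it. A summit within 1 kb of the TSS of the canonical transcript was present at 8 of 10 genes in WT As3+ and at 9 of 10 in Nrf2 KO control, beside 49.3% and 63.6% of all genes. No gene of the 10 had one in WT control or Nrf2 KO As3+, where the shares of all genes were 0.694% and 0.180%. The genes without such a summit were *KLF7* and *KLF10* in WT As3+, whose nearest summits lay 1010 bp upstream and 1032 bp downstream of the TSS, and *KLF9* in Nrf2 KO control, whose nearest lay at 2054 bp. Within 2 kb of the canonical TSS, or within 1 kb of any annotated TSS of the gene, the counts were 10 of 10 in WT As3+ and 9 of 10 in Nrf2 KO control. The shares of all genes were not counted under these 2 rules. Within 1 kb lay 12 of the 36 summits in WT As3+ and 17 of the 49 in Nrf2 KO control, and within 100 bp 0 and 2. These counts use the canonical TSS alone, and some summits lay closer to another TSS of the same gene. In WT As3+ a *KLF11* summit lay 61 bp and a *KLF13* summit 48 bp from such a TSS, and in Nrf2 KO control a *KLF11* summit lay 47 bp from one. Introns held 17 summits in WT As3+ and 20 in Nrf2 KO control, and 12 and 13 lay upstream. More than 10 kb away lay 4 and 18 summits. The shares of all peaks at these distances and places were not counted.

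**Figure D2:**
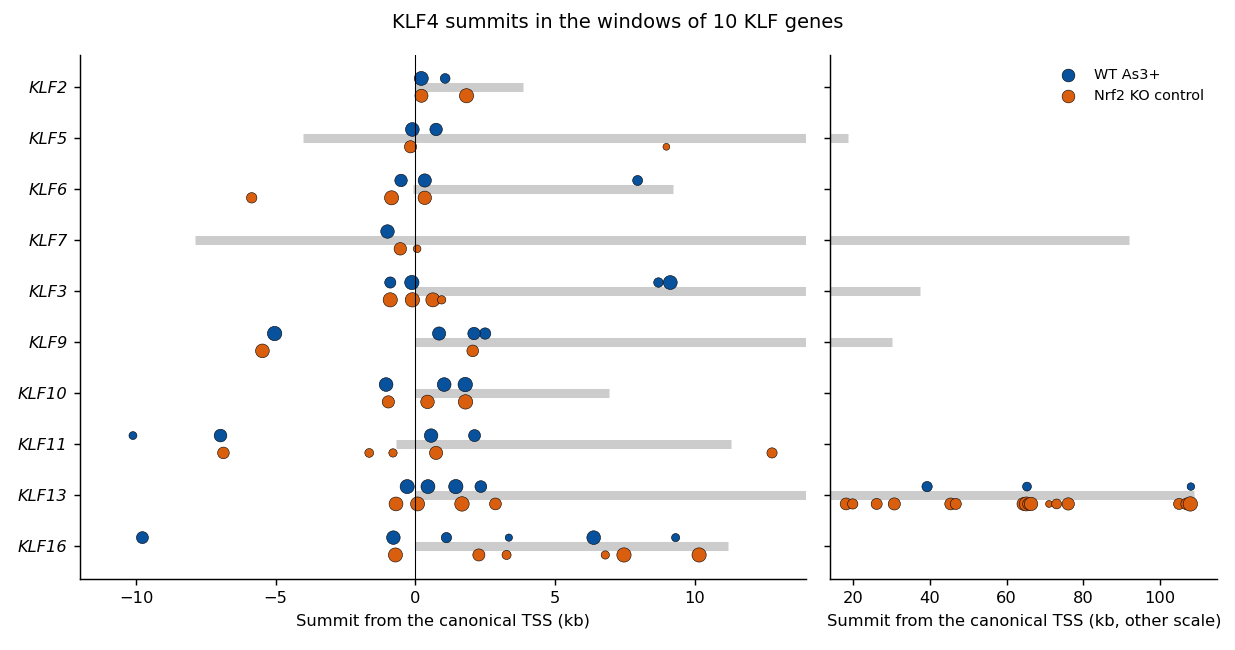
Position of each KLF4 summit relative to the canonical TSS (x axis in kb, with a more compressed scale in the right panel) for the 10 KLF genes (y axis), in WT As3+ (blue) and Nrf2 KO control (orange). Grey bars are the annotated gene, and larger points rank higher by fold in their own list. *KLF13* alone has summits in the right panel, 3 in WT As3+ and 16 in Nrf2 KO control.

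Among the activators, *KLF2*, known for keeping endothelial cells and T cells quiescent, had the same intron 1 site in both long lists (gene at chr19:16324826-16328685, plus strand). The summit lay 213 bp past the TSS in WT As3+, with a fold of 7.13 over 13 fragments, and ranked 2497 of 29870. The Nrf2 KO control summit lay 219 bp past the TSS, with a fold of 5.54 over 8 fragments, and ranked 17320 of 76545. The second peak ran the other way. It ranked 20810 in WT As3+, in coding exon 2 at 1067 bp, and 3615 in Nrf2 KO control, in intron 2 at 1832 bp, with the summits 765 bp apart. *KLF2-DT*, a lncRNA on the opposite strand, starts 312 bp upstream of the *KLF2* TSS, so these peaks also lie near its start.

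*KLF5*, which drives proliferation of basal epithelial cells, had its main peak just upstream of the canonical TSS (gene at chr13:73054976-73077541, plus strand). The summit lay at −108 bp in WT As3+, with a fold of 6.59 over 17 fragments and 87.5% of the list below it. Its counterpart in Nrf2 KO control lay at −173 bp, with a fold of 5.06 over 11 fragments and 63.0% of the list below it. That peak was 1225 bp wide and overlapped both WT As3+ peaks of the gene, the second of which had its summit in intron 1 at 743 bp. A weak peak in intron 3 at 8989 bp was listed in Nrf2 KO control alone, with a fold of 2.99 over 4 fragments and rank 76088 of 76545. It was the lowest of all peaks of the 10 genes.

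*KLF6*, an early gene of the injury response, had 1 summit that fell on the same base in the 2 lists, at 337 bp in intron 1 (gene at chr10:3775996-3785281, minus strand). Its fold was 5.87 over 14 fragments in WT As3+, with 79.5% of the list below it, and 5.97 over 11 fragments in Nrf2 KO control, with 83.2% below it. This is the site printed above with the ARE core. The upstream peak had its summit at −513 bp in WT As3+ and at −852 bp in Nrf2 KO control, where 94.2% of the list lay below it. The lncRNA ENSG00000288755 starts 342 bp upstream of the *KLF6* TSS on the other strand and was the nearest TSS to both. The third peak of each list had no partner in the other. It lay in the 3′ UTR at 7959 bp in WT As3+ and at −5861 bp in Nrf2 KO control.

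*KLF7*, known for its part in axon growth, had the fewest peaks (gene at chr2:207074137-207173856, minus strand). The only WT As3+ peak had its summit 1010 bp upstream of the canonical TSS and 111 bp from the TSS of another *KLF7* transcript, with a fold of 6.24 over 17 fragments. The Nrf2 KO control peak that overlapped it had its summit at −539 bp, 471 bp away, with a fold of 5.20 over 12 fragments. The nearest TSS to this summit was that of *MIR7845*, at 87 bp. The second Nrf2 KO control peak, in the 5′ UTR exon at 62 bp, had a fold of 3.60 and 8.42% of the list below it. The rest of the gene, whose canonical transcript starts some way inside the annotated gene, held no summit in any list.

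*KLF3*, which binds CtBP and represses CACCC-driven genes, stood high in both long lists (gene at chr4:38664197-38701517, plus strand). At the promoter site printed above, the WT As3+ summit lay at −126 bp, with a fold of 9.03 over 16 fragments and rank 808 of 29870. The Nrf2 KO control summit lay 19 bp from it at −107 bp, with a fold of 8.27 over 12 fragments and rank 1697 of 76545. A second pair of summits was 1 bp apart, at −898 and −899 bp. It ranked 15284 in WT As3+ and 3298 in Nrf2 KO control. Further summits lay in intron 1. WT As3+ had 2, at 8704 and 9128 bp, the second with a fold of 6.96, and neither peak had a partner in Nrf2 KO control. Nrf2 KO control had 2, at 627 and 942 bp, of which the peak at 627 bp overlapped the wide WT As3+ promoter peak and that at 942 bp had no partner. The lncRNA *KLF3-AS1* runs on the opposite strand, and a start of it lay 19 bp from the 627 bp summit.

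Among the repressors that bind SIN3, *KLF9*, a gene induced by glucocorticoid and thyroid hormone, had its highest peak well upstream (gene at chr9:70384604-70414657, minus strand). In WT As3+ the summit lay at −5040 bp, with a fold of 11.5 over 26 fragments, rank 249 of 29870 and a width of 1560 bp, the widest of all peaks of the 10 genes. In Nrf2 KO control the overlapping peak had its summit at −5477 bp, 437 bp away, with a fold of 6.23 over 13 fragments and rank 9643 of 76545. The nearest TSS was that of the lncRNA ENSG00000289159, at 1218 bp from the WT As3+ summit and 781 bp from the other. Both KLF words of the sequence printed above lie within 100 bp of the WT As3+ summit. They also lie under the Nrf2 KO control peak, which spans the whole printed stretch, but not within 100 bp of its summit. Over the gene, 4 KLF words lay under WT As3+ peaks and 4 under Nrf2 KO control peaks. Inside the gene, WT As3+ had summits at 850, 2101 and 2498 bp, and Nrf2 KO control only the one at 2054 bp, 47 bp from the second of these. In the lists as deposited, *KLF9* alone of the 10 genes had fewer peaks in Nrf2 KO control than in WT As3+. The same held for 8.83% of all genes with a peak in both. At equal list length, as given above, *KLF3*, *KLF5*, *KLF6*, *KLF11* and *KLF16* had fewer as well.

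*KLF10*, an early response gene of TGF-β, had the highest peak of the 10 genes in WT As3+ (gene on the minus strand, 102648784-102655725 of chromosome 8). Its summit lay in intron 1 at 1786 bp and 436 bp from the TSS of another *KLF10* transcript, with a fold of 13.4 over 33 fragments and rank 117 of 29870. The Nrf2 KO control summit was 10 bp from it, with a fold of 9.03 over 17 fragments and rank 865 of 76545. In each long list 98.9% or more of the peaks lay below this site. A second intron 1 summit at 1032 bp in WT As3+, with a fold of 6.59, fell within the same 1030 bp wide Nrf2 KO control peak. Upstream, the summits lay at −1048 and −967 bp, 81 bp apart, with folds of 6.57 and 5.10. The lncRNA ENSG00000283959 starts 516 bp upstream of *KLF10* on the other strand. All 6 peaks of *KLF10* overlapped a peak of the other list.

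*KLF11*, a TGF-β-inducible relative of *KLF10*, had lower peaks that were spread more widely (gene at chr2:10042849-10054836, plus strand). The highest in WT As3+ had its summit at 564 bp in intron 1, with a fold of 6.25 over 11 fragments and 84.1% of the list below it. The overlapping Nrf2 KO control peak had its summit at 742 bp, with a fold of 5.63 over 8 fragments and 78.2% below it. A distal pair lay at −6977 and −6873 bp, 104 bp apart, with folds of 5.43 and 4.80, and both windows held an ARE core. The other 2 WT As3+ peaks, at −10113 and 2119 bp, and the other 3 Nrf2 KO control peaks, at −1652, −801 and 12772 bp, had no partner.

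*KLF13*, known as an activator of *CCL5* in T cells, had the most peaks in both long lists, and in the lists as deposited the largest gap between them (gene at chr15:31326835-31435665, plus strand). Near the TSS both lists had 4 summits within 3 kb, and all of these peaks overlapped. In WT As3+ they lay at −293, 451, 1449 and 2345 bp, with folds of 7.71, 7.09, 8.82 and 4.95. Those of Nrf2 KO control lay at −693, 79, 1669 and 2868 bp, with folds of 6.50, 6.85, 12.5 and 4.87. The summit at 1669 bp, over 20 fragments, ranked 61 of 76545 and was the only one of the 49 within the top 1% of the list. Its partner at 1449 bp, 220 bp away and over 18 fragments, ranked 909 of 29870.

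The difference in number between the deposited lists lay in the distal part of *KLF13*. Beyond 10 kb WT As3+ had 3 summits, at 39271, 65322 and 108071 bp, with folds between 3.57 and 4.44. Nrf2 KO control had 16, from 18150 to 107929 bp, with folds between 3.11 and 9.04. The one at 107929 bp, over 13 fragments, ranked 863 of 76545, while its partner 142 bp away in WT As3+ ranked 27512 of 29870 over 6 fragments. Around 65 kb, where other *KLF13* transcripts start, WT As3+ had 1 summit, at 20.7% of the list, and Nrf2 KO control had 4 between 64359 and 66373 bp, of which the highest stood at 92.5%. At equal list length, as given above, the gap was 7 against 8. With peaks of −log10 q 5 or more, the gene had 3 peaks in WT As3+ and 6 in Nrf2 KO control.

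*KLF16*, known as a regulator of dopamine receptor genes, had 6 peaks in each list (gene at chr19:1852399-1863579, minus strand). The upstream site printed above had its summit at −787 bp in WT As3+, with a fold of 6.29 over 14 fragments and 84.8% of the list below it. In Nrf2 KO control it lay at −713 bp, with a fold of 7.12 over 15 fragments and 93.8% below it. The other shared pair, at 3348 and 3266 bp in intron 1, was weak in each, with folds of 3.42 and 4.00. The equal number hid different sites. WT As3+ had further summits at −9773, 1113, 6386 and 9319 bp and Nrf2 KO control at 2274, 6802, 7470 and 10160 bp, and none of these peaks overlapped a peak of the other list. The highest of the gene in Nrf2 KO control was at 7470 bp, with a fold of 8.0 and 97.0% of the list below it.

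**Figure D3:**
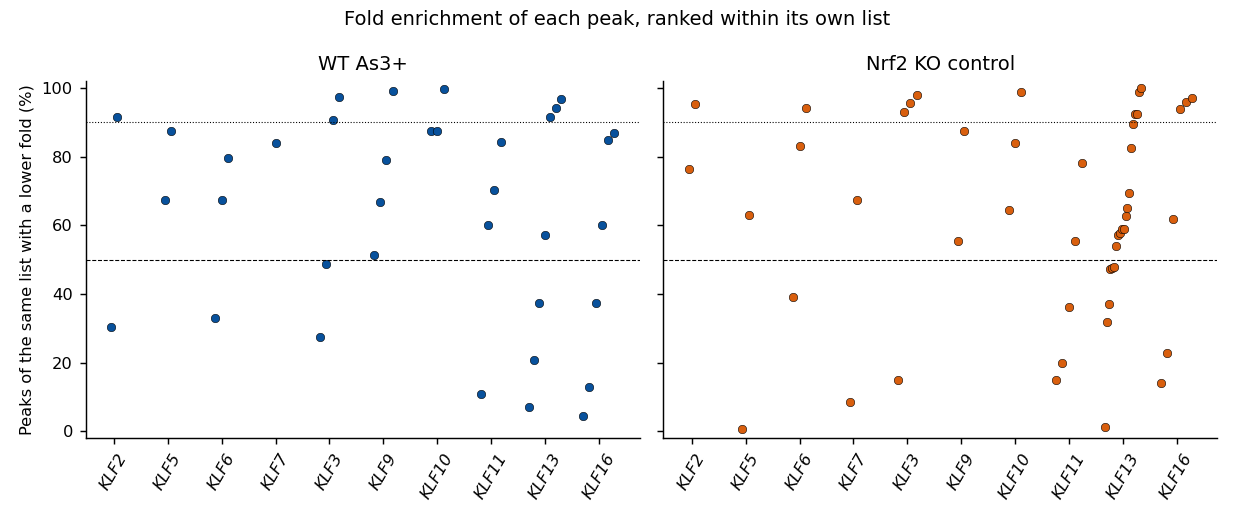
Share of peaks of the same list with a lower fold (y axis, %) for every peak of the 10 KLF genes (x axis), in WT As3+ (left) and Nrf2 KO control (right). The dashed line marks the middle of the list and the dotted line its top 10%, which holds 8 of 36 peaks in WT As3+ and 13 of 49 in Nrf2 KO control.

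Ranked within their own list, the peaks of the 10 genes ran from near the bottom to near the top and were on balance somewhat higher than the list. The median fold was 5.34 in WT As3+, beside 4.72 over all peaks, and 5.06 in Nrf2 KO control, beside 4.69. The median peak had 68.9% of the WT As3+ list and 63.0% of the Nrf2 KO control list below it. In the top 10% lay 8 peaks of 5 genes in WT As3+ and 13 peaks of 6 genes in Nrf2 KO control. A −log10 q of 5 or more was reached by 17 of 36 peaks in WT As3+ (47.2%), beside 31.9% of the list, and these included a peak at each of the 10 genes, where 38.2% of all genes had one. Of the Nrf2 KO control peaks, 18 of 49 reached it (36.7%), beside 21.1% of the list, at 7 of the 10 genes, where 51.0% of all genes had one. The 3 genes without one were *KLF5*, *KLF7* and *KLF11*.

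Many sites at these genes were shared between the long lists. Of the 36 WT As3+ peaks, 24 overlapped an Nrf2 KO control peak by at least 1 bp (66.7%, 95% interval 49.0 to 81.4%), beside 55.6% of the whole list. Of the 49 Nrf2 KO control peaks, 25 overlapped a WT As3+ peak (51.0%, 36.3 to 65.6%), beside 21.7% of the whole list. The WT As3+ interval holds the share of its whole list, and the Nrf2 KO control interval does not. These intervals treat peaks as independent, although 20 of the 49 Nrf2 KO control peaks belong to *KLF13* and some overlap the same WT As3+ peak. The 49 peaks were also wider than their list, with a median of 363 bp beside 267 bp, and the part of width in the overlap was not tested. Each of the 10 genes had a shared peak. From the summits of the 24 WT As3+ peaks, the summit of the overlapping peak was 0 to 916 bp away with a median of 160 bp, and 10 were at most 100 bp away. Among the 25 Nrf2 KO control peaks the distance reached 1483 bp, at the 1504 bp wide peak of *KLF10*. With summits at most 200 bp apart as the requirement, 14 peaks were shared, which is 38.9% of the WT As3+ and 28.6% of the Nrf2 KO control peaks. Shares of the whole lists were not counted under this requirement.

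**Figure D4:**
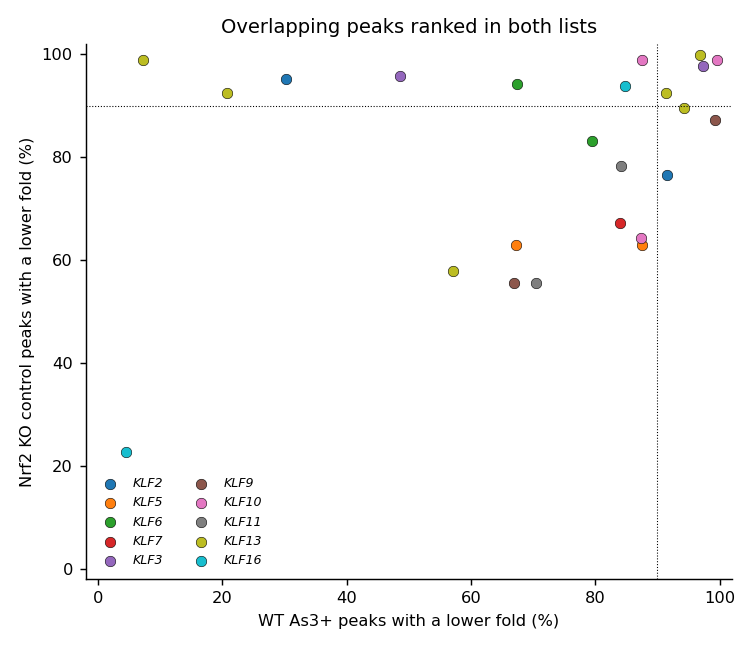
Each point is a WT As3+ peak of the 10 KLF genes that overlaps an Nrf2 KO control peak, placed by the share of each list with a lower fold (x axis WT As3+, y axis Nrf2 KO control, both in %). Dotted lines mark the top 10% of each list, and the upper right corner holds 4 pairs, at *KLF3*, *KLF10* and *KLF13*.

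A high rank in one list did not always go with a high rank in the other. In the top 10% of both lists were 4 pairs of 3 genes, namely the *KLF3* promoter, *KLF10* intron 1 and *KLF13* at 451 and 1449 bp. At *KLF9* the upstream peak had 99.2% of the WT As3+ list below it and 87.3% of the Nrf2 KO control list. In the other direction, the *KLF13* peak near the gene end had 7.17% and 98.9%, the second *KLF2* peak 30.3% and 95.2%, and the −898 bp *KLF3* peak 48.6% and 95.7%. With 6 to 13 fragments over the summits of these 3 sites, a single peak is measured with little precision.

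The KLF word itself was not more than an occasional feature of these peaks. It was found within 100 bp of 5 of the 36 summits in WT As3+ (13.9%, 4.67 to 29.5%), beside 10.4% of the list, and of 7 of the 49 in Nrf2 KO control (14.3%, 5.94 to 27.2%), beside 9.31%. The members' intervals hold the shares of the lists, so no difference was detectable with this number of peaks. The 5 in WT As3+ belonged to *KLF6* (2), *KLF9*, *KLF13* and *KLF16*. The *KLF9* site is printed above, and the *KLF13* window at 2345 bp also had 2 words. The windows of the 10 genes held 114 KLF words in 462 kb, of which 13 (11.4%) lay under a WT As3+ peak, where peaks covered 3.73% of the bases. In Nrf2 KO control 23 words (20.2%) lay under peaks that covered 5.19%. The words under peaks came from 5 genes in WT As3+, with 4 each at *KLF9* and *KLF13*. In Nrf2 KO control they came from 8 genes, with 10 at *KLF13*. Such shares were not counted for other genes, and the part of GC content was not tested.

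The wider KLF word was found at 20 of the 36 summits in WT As3+ (55.6%, 38.1 to 72.1%), beside 31.3% of the list, and at 18 of the 49 in Nrf2 KO control (36.7%, 23.4 to 51.7%), beside 24.5%. It was seen at 9 genes in WT As3+ and 7 in Nrf2 KO control. GC content moved with it. The median GC of the 201 bp windows was 67.9% in WT As3+, beside 64.7% over the list, with 19 CpG in the median window beside 10. In Nrf2 KO control it was 65.2% beside 61.2%, with 9 CpG beside 7. The part of GC content in the share of wider words was not tested. In RefSeq promoters of GRCh38.p14, 300 bases from 250 before to 50 after a gene start, 34.5% of 35116 held the wider word and 8.05% the KLF word. Of the 13 promoter entries of 8 of the 10 genes, 7 held the wider word and 1, that of *KLF16*, the KLF word.

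The ARE core was found at 4 of 36 summits in WT As3+ (11.1%, 3.11 to 26.1%), beside 9.38% of the list, and at 7 of 49 in Nrf2 KO control (14.3%, 5.94 to 27.2%), beside 9.22%. In WT As3+ these were the *KLF3*, *KLF6* and *KLF16* sites printed above and the distal *KLF11* site. In all 4 the overlapping Nrf2 KO control summit had an ARE core in its window as well. With these summits 0 to 104 bp apart, the paired windows share sequence, so this is not a separate observation. The word is short and degenerate, and 13.3% of all promoters and 0 of the 13 promoter entries of these genes held it. Those entries include none for *KLF3* or *KLF10*, and the *KLF3* promoter site printed above does have an ARE core. AP-1 words (TGAGTCA or TGACTCA) were found at 1 of 36 summits, in *KLF10* intron 1, and at 3 of 49, at *KLF9*, *KLF10* and *KLF13*, beside 4.34% and 2.54% of the lists.

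**Figure D5:**
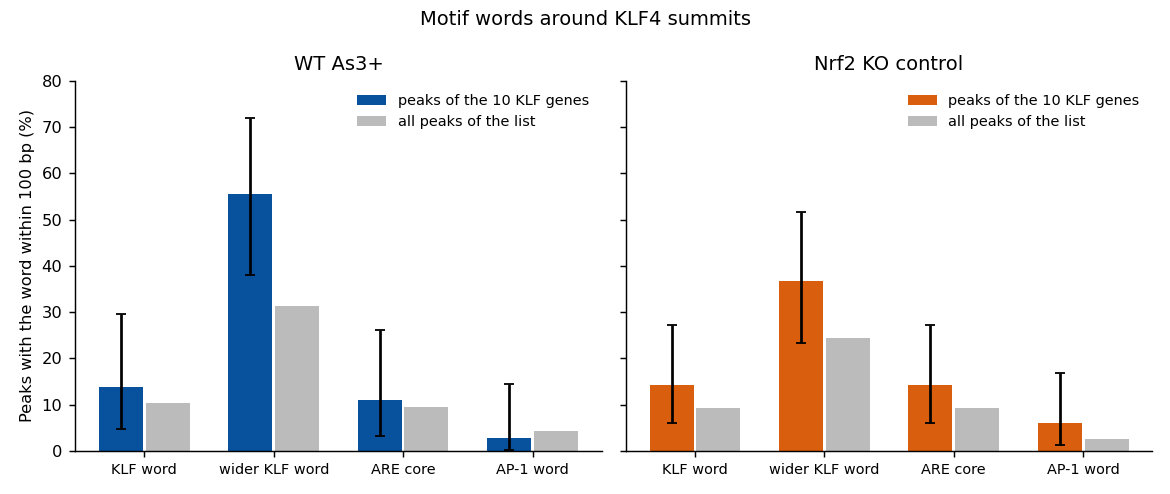
Share of summits with each word within 100 bp (y axis, %) for the peaks of the 10 KLF genes (coloured bars, with exact 95% intervals for counting error) and for all peaks of the list (grey bars), in WT As3+ (left) and Nrf2 KO control (right). The interval of the wider KLF word in WT As3+ starts at 38.1%, above the 31.3% of the list, and each of the other 7 intervals holds the share of its list.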

How the data were processed

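KLF4 ChIP-seq was analysed in 4 libraries of BEAS-2B cells, 1 per condition, out of 14 samples in the series. The conditions came from the sample labels. The input, H3K27Ac and H3K4me1 samples were not used here. The authors aligned reads with BWA. The paper's methods name GRCh38/hg38 beside an older build, and the submitters' processing notes name only GRCh38/hg38 for these libraries, which was used here. The notes also name bcl2fastq 2.17. The peak caller and its settings are not given in the sources used here. For every peak the deposited lists hold an interval, a summit, a score, a fold enrichment at the summit (a ratio to the local background), a −log10 p and a −log10 q. These are the authors' values, and fold was ranked only within a list.

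Genes came from GENCODE 44, positions within genes from the Ensembl canonical transcript, and the promoter table from RefSeq. The number of fragments n and the background λ of a peak were solved from fold = (n + 1)/(λ + 1) with p as the upper Poisson tail, and the −log10 p so obtained differed from the deposited one by 0.000405 or less. Only this number of fragments gives the depth behind a peak. Shares carry exact Clopper-Pearson 95% intervals, which cover counting error only, since PCR duplicates and the variation between libraries are not in them. The intervals also treat the peaks of a gene as independent. Fragment numbers, gene counts and overlaps were checked on simulated data, and motif counts were not. The members and the lists were chosen with earlier results of these data known. All 10 genes were named, and *KLF4*. Of the other KLF and SP genes, one was named if it had a peak in a short list or had none in a long list. Other genes were named as the nearest TSS or as a TSS inside a window. Alternatives were other thresholds, list lengths, windows, overlaps and words. Leaving out *KLF13* was added after the data had been seen. Software was Python 3.11.15 with pandas 2.3.3, pysam 0.24.0, scipy 1.17.1, numpy 2.4.6 and matplotlib 3.10.9, and samtools 1.23.1.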

Additional observations from a re-analysis of the deposited data

Results flagged for a closer look

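The As3+ contrast ran in opposite directions in WT and Nrf2 KO cells at these genes, and this difference was not tested, since there was 1 library per condition. Over the 10 windows the number of peaks with As3+ minus that without was 36 in WT cells and −49 in Nrf2 KO cells. All 10 genes had more peaks with As3+ in WT cells and fewer in Nrf2 KO cells. A narrower pattern, with peaks in both long lists and none in the short ones, was found at 61.3% of all protein-coding genes. The long list of each pair also had the lower background, and the part of this in the difference was not tested.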

How the results depend on the processing

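Of 90 alternative values, 72 stayed close to the reported ones, within 1.5 times for a count or within the counting interval for a share, and 18 did not. The counts in WT control and Nrf2 KO As3+ stayed at 0 in every alternative run, which the alternatives could not have changed. The nearest peak to a window lay 74.8 kb away in WT control and 2464 kb away in Nrf2 KO As3+, beyond the reach of every setting. These zeros are among the 72 values that stayed close. With every list shortened to the 130 strongest peaks, the genes with a peak came to 0 in WT As3+ and 1 in Nrf2 KO control, the peaks to 0 and 1, and the genes with a promoter peak to 0 and 0. This alternative keeps few peaks by construction. With only peaks of −log10 q 5 or more, the peaks came to 17 in WT As3+ and 18 in Nrf2 KO control, and the genes with a promoter peak in Nrf2 KO control to 5. With the Nrf2 KO control list shortened to the length of the WT As3+ list, that list had 26 peaks at these genes, still at all 10, beside 65.3% of all genes, and 76.9% of them were shared. Without *KLF13*, an alternative chosen after seeing the data, there were 29 peaks in Nrf2 KO control. Shared peaks came to 38.9% in WT As3+ and 28.6% in Nrf2 KO control with summits at most 200 bp apart, and to 33.3% and 24.5% with an overlap of 50% of both peaks. For these rules and for the shortened list, the shared part of the whole lists was not counted. The wider KLF word gave 55.6% and 36.7%. No paired analysis was possible because each condition has 1 library and the labels carry no replicate numbers, so no replicate could be left out either. The fragments over a summit, 4 to 33 at these genes, limit each peak's precision.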
